A study of Mus musculus with 12 samples.

Results

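The genes that build, modify and carry heparan and chondroitin sulfate chains were followed in cultured mouse cardiac fibroblasts, control or Smad7-knockout (Smad7-KO), with and without TGF-β1. They were chosen by name alone, as the protein-coding genes of the deposited table whose symbols are a family name (Sdc, Gpc, Xylt, B3gat, Ext, Extl, Ndst, Hs2st, Hs3st, Hs6st, Sulf, Chsy, Csgalnact or Chst) followed by a number. The rule found 55 genes among 35275 in the table, of which 22026 are protein-coding. RNA-Seq of polyA RNA was performed on cardiac fibroblasts from 12-week-old C57BL/6 Smad7 floxed mice, in which loxP sites flank the promoter and first exon of Smad7. All cells were used at passage 2 and were infected for 48 hours with adenovirus at 100 MOI. Control cells received an adenovirus that the labels describe as expressing GFP and the study's methods as empty, and Smad7-KO cells received adenovirus expressing Cre recombinase. Smad7-KO and control cells therefore differed in both Smad7 and the virus received, and the effects of these cannot be told apart here. The cells were then left unstimulated or received 10 ng/ml TGF-β1, for 2 hours according to one label and 4 hours according to another. The 4 groups (control and Smad7-KO cells, each unstimulated or with TGF-β1) had 3 libraries each, and the labels do not say whether these came from separate cultures or animals, so p-values measure only the spread between these libraries.

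Heparan sulfate and chondroitin sulfate are long sugar chains attached to core proteins, such as the transmembrane syndecans and the lipid-anchored glypicans. Synthesis starts in the Golgi with a short linker sugar on the core protein, continues with the addition of alternating sugars by polymerizing enzymes, and ends with sulfotransferases that place sulfate groups along the chain. The sulfate pattern decides which growth factors and matrix proteins the chain can bind, and in the heart fibroblasts are a main source of the proteoglycans of the interstitial matrix.

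Of the 8 genes that were called in the same direction in both comparisons of TGF-β1 with no stimulation (see the values further on), 5 had an entry in the RefSeq promoter sequences used here, and the 250 bases before their start sites are shown because this is the DNA next to the transcripts that moved with TGF-β1. Letters in capitals mark matches to CAGAC, the Smad-binding element in its short form, or to GTCTG, which is the same motif read on the other strand. The windows are given 5′ to 3′ on the strand of the gene and are credited to RefSeq, build GRCm38.p6, as Chst1 on chr2:92600867-92601116 (plus strand), Chst3 on chr10:60219261-60219510 (minus strand), Chst7 on chrX:20059320-20059569 (plus strand), Chst11 on chr10:82985247-82985496 (plus strand) and Chsy1 on chr7:66109242-66109491 (plus strand).
Chst1: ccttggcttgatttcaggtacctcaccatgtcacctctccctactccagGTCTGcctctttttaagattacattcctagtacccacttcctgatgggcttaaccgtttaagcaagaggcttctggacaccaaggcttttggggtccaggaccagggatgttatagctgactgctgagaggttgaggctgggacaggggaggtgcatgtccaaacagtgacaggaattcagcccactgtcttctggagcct
Chst3: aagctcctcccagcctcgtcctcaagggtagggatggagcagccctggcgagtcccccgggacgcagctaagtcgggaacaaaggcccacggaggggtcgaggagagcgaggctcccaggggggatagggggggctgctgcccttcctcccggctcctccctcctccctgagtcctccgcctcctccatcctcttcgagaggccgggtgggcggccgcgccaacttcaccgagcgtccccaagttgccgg
Chst7: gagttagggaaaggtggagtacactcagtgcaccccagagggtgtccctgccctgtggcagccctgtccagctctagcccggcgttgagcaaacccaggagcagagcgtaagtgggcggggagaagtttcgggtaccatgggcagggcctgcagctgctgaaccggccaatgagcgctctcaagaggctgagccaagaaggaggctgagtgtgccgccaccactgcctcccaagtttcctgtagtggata
Chst11: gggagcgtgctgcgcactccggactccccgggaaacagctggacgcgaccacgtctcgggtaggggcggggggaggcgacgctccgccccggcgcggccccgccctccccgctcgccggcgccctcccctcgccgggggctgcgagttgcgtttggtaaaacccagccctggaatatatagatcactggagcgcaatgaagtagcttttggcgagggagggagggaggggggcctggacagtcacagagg
Chsy1: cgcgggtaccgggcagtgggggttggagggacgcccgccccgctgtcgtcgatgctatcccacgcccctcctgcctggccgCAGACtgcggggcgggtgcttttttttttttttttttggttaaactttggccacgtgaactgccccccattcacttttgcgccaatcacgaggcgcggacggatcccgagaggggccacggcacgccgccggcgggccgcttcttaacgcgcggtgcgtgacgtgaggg
The Chst1 window held 1 match, on the other strand and 201 bases before the start, and the Chsy1 window held 1 match 169 bases before the start. Chst3, Chst7 and Chst11 had no match in these windows. The motif was present on one strand or the other in 42.2% of the 32851 windows of all genes and in 17 (36.2%) of the 47 windows of the 41 genes of the group that had an entry. The AP-1 motif TGANTCA, searched on both strands, was present in 6.75% of all windows, in 2 (4.26%) of the 47 and in 0 of the 5 shown. Median GC content was 64.0% in the 47 windows and 52.4% in all windows. Xylt1, Ext1 and Extl3, the other 3 genes called in both comparisons, had no entry. The starts are those of RefSeq, and those of Chst1 and Chst7 lie inside the spans of these genes in the deposited table.

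Library totals were 19056916 to 25371321 counts (median 22660845). Levels are given as scaled FPKM, which is the read count over gene length in kilobases and over library size in megareads after TMM scaling of the library, so that genes and libraries can be compared on 1 scale. A gene is called where the Benjamini-Hochberg adjusted p of edgeR's quasi-likelihood test, over the 15150 genes tested, was 0.05 or less. Unstimulated control 2 stood apart from the other libraries. Its counts fell with gene length (slope of -0.394 in log2 level per log2 length, against -0.144 to 0.144 in the others), and the 55 genes took 0.237% of its counts against 0.288% to 0.386% elsewhere. The length trend was not limited to this library. Slopes were 0.0167 to 0.144 in Smad7-KO libraries and -0.394 to 0.0957 in control libraries, so the trend also differed between Smad7-KO and control. The spread between replicates was largest in unstimulated control (biological coefficient of variation 0.312) and smallest in unstimulated Smad7-KO (0.0525). Smad7, the deleted inhibitor of TGF-β signaling, was at 16.7, 17.4 and 18.1 scaled FPKM in unstimulated and 33.9, 35.1 and 33.2 in stimulated control cells, and 6.69, 6.63 and 7.26 in unstimulated and 18.9, 16.4 and 18.6 in stimulated Smad7-KO cells. At each stimulation the 3 Smad7-KO libraries lay under the 3 control libraries, by 1.34 on the log2 scale without TGF-β1 (edgeR adjusted p = 9.02e-06) and by 0.92 with it (edgeR adjusted p = 1.15e-04). Smad7 transcript was thus reduced and not absent in Smad7-KO cells. Its mean in stimulated Smad7-KO cells was 17.9 scaled FPKM, against 17.4 in unstimulated control cells.

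The summed level of 10 fibroblast markers was between 1701 and 2332 scaled FPKM in all libraries, and 11 macrophage markers summed to between 11433 and 20135, so that macrophage transcripts were abundant in cells labelled as fibroblasts. Of the 11 macrophage markers, 6 were called higher in Smad7-KO without TGF-β1 and 5 with it, and none lower, against 12.1% and 5.72% of all genes called higher. Endothelial markers summed to 173 to 194 in the control libraries and 54.5 to 64.6 in the Smad7-KO libraries, and 9 of the 12 were called lower and 1 higher in both Smad7-KO comparisons. Over all genes tested, 13.7% were called lower without TGF-β1 and 7.23% with it. Epicardial and mesothelial markers summed to between 120.0 and 146 in control and between 73.6 and 91.7 in Smad7-KO. Cardiomyocyte markers summed to at most 28.7 and smooth muscle and pericyte markers to at most 9.16, and the cardiomyocyte gene Nppa was at 0 in 3 of the 4 groups. In bulk RNA, fewer cells of a type and less RNA per cell cannot be told apart, and the part of these cell types in the differences between Smad7-KO and control described here was not tested.

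With TGF-β1, transcripts for chain-elongating enzymes of both kinds of chain and for several sulfotransferases were higher, while the core proteins did not pass the test. In control cells 10 of the 43 members tested (23.3%) were called, 9 higher and 1 lower, against 8.37% of all genes tested (5.04% higher and 3.33% lower). The higher genes were Xylt1, Ext1, Extl3, Chsy1, Chsy3, Chst3, Chst11, Chst15 and Chst1, and the lower gene was Chst7. In Smad7-KO cells 11 of 43 (25.6%) were called, 9 higher and 2 lower, against 10.2% of all genes (5.33% higher and 4.9% lower). There Hs2st1 and Sulf2 were higher and Extl1 lower, and Chsy3 and Chst15 did not pass the test. The 8 genes called in the same direction in both kinds of cells (Xylt1, Ext1, Extl3, Chsy1, Chst3, Chst7, Chst11 and Chst1) were 80% of those called in control and 72.7% of those called in Smad7-KO, and 18.6% of the 43 tested, against 6.6% of all genes. Over all genes, 1000 were called in the same direction in both, of 1268 called in control and 1550 called in Smad7-KO. The median log2 fold change over the 43 was 0.09 in control and 0.02 in Smad7-KO, against -0.03 and -0.01 over all genes. When only the libraries of the comparison were fitted, 3 members were called in control cells and 19 in Smad7-KO cells. Omission of a single library, used below, kept the other groups in the estimate of the spread. A call that held in every omission can therefore still be lost when only the libraries of its comparison are fitted. Removal of the length trend of each library moved the higher share of all called genes from 60.2% to 47.9% in control cells.

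**Figure D1:**
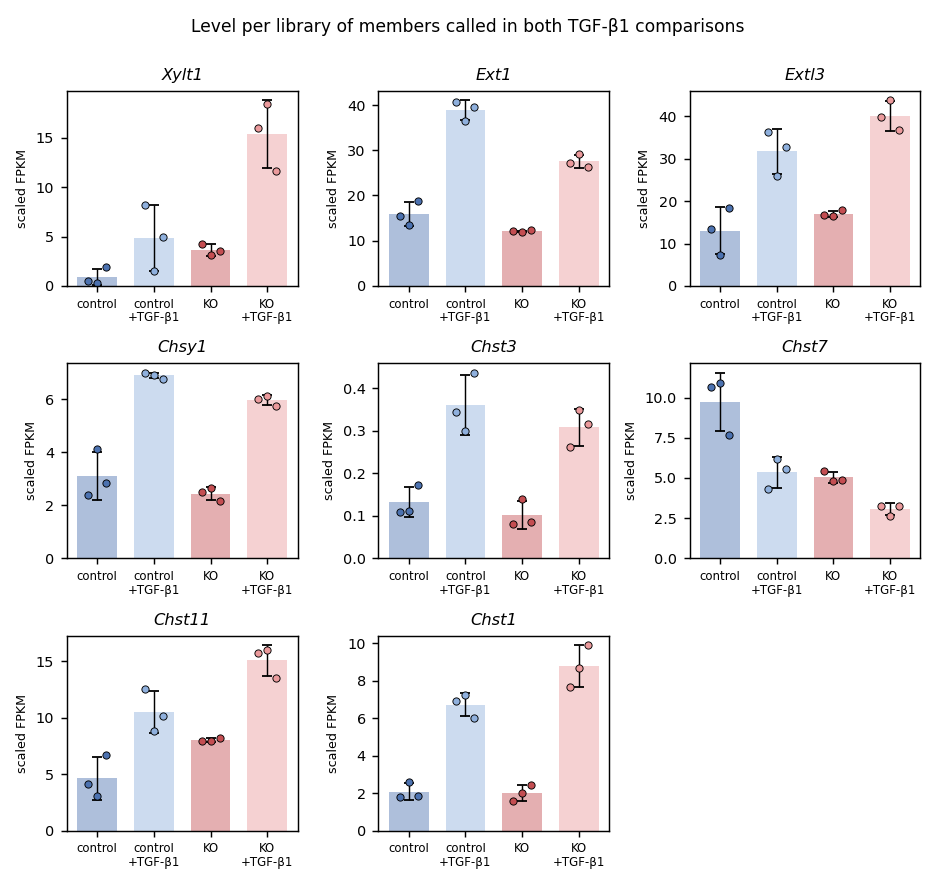
Scaled FPKM (vertical axes, linear, starting at 0) of the 8 genes called in both TGF-β1 comparisons, with bars for the mean of 3 libraries, error bars for the SD and points for libraries. Chst7 was lower and the other 7 genes were higher with TGF-β1 in both kinds of cells, and only Xylt1 in control cells had libraries of the groups that overlapped.

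Smad7-KO cells had lower transcript levels of several core proteins, of both subunits of the heparan polymerase and of sulfotransferases for both chains, and a smaller number of members were higher. Without TGF-β1, 15 of 43 (34.9%) were called, 5 higher and 10 lower, against 25.8% of all genes tested (12.1% higher and 13.7% lower). The higher genes were Xylt1, Ndst2, Csgalnact1, Chst11 and Chst15, and the lower genes were Sdc1, Sdc2, Gpc3, Gpc4, Ext1, Ext2, Hs6st2, Chst7, Chst12 and Chst14. With TGF-β1, 10 of 43 (23.3%) were called, Csgalnact1 higher and 9 lower, against 13% of all genes (5.72% higher and 7.23% lower). Sdc2, Gpc3, Gpc4, Ext1, Ext2, Hs6st2, Chst7 and Chst14 were lower and Csgalnact1 higher in both comparisons. These 9 genes were 60% of those called without TGF-β1, 90% of those called with it and 20.9% of the 43 tested, against 10.7% of all genes. Over all genes, 1628 were called in the same direction in both, of 3907 called without TGF-β1 and 1962 called with it. The median log2 fold change over the 43 was -0.19 without and -0.21 with TGF-β1, against -0.02 over all genes in both. When only the libraries of the comparison were fitted, 3 members were called without TGF-β1 and 22 with it. Here too, calls that held in every omission of a single library can be lost in this fit. Over all genes, 44.1% of those called with TGF-β1 were higher, which became 57.1% after removal of the length trend and 30.0% to 33.0% in limma on log2 FPKM.

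**Figure D2:**
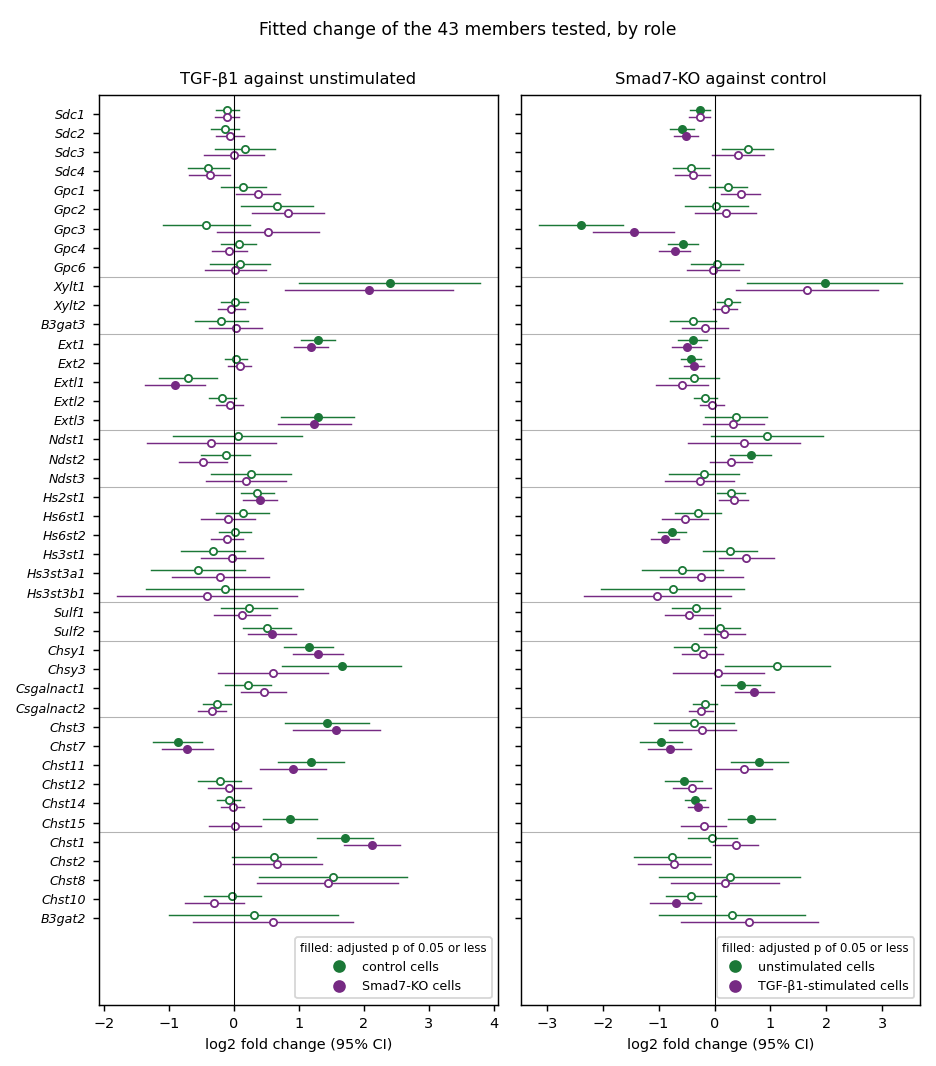
Log2 fold change (horizontal axes) with its 95% confidence interval for each of the 43 tested members in the 4 comparisons, with filled points where the edgeR adjusted p was 0.05 or less. Filled points lie mostly to the right of 0 for TGF-β1 (9 of 10 in control and 9 of 11 in Smad7-KO) and mostly to the left for Smad7-KO (10 of 15 without and 9 of 10 with TGF-β1).

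Among the core proteins, Gpc4 had the highest mean level in control cells and Sdc3 in Smad7-KO cells. With TGF-β1, 0 of the 9 tested were called, against 8.37% of all genes in control cells and 10.2% in Smad7-KO cells. In Smad7-KO, 4 of the 9 were lower without TGF-β1 and 3 with it, against 13.7% and 7.23% of all genes. Gpc4 (ENSMUSG00000031119, chrX:52053021-52165252, minus strand), a glypican, was measured at 122, 106 and 136 scaled FPKM without and 132, 129.9 and 120.4 with TGF-β1 in control cells, and 95.2, 71.8 and 78.4 without and 80.2, 77.0 and 75.9 with TGF-β1 in Smad7-KO cells. The 6 Smad7-KO libraries all had less Gpc4 than the 6 control libraries. The log2 fold change of Gpc4 was -0.57 ± 0.12 (SE, edgeR adjusted p = 0.00912) without TGF-β1 and -0.71 ± 0.12 (edgeR adjusted p = 0.0038) with it. Gpc3 (ENSMUSG00000055653, chrX:52272426-52613950, minus strand) is a glypican that lies beside Gpc4 on the X chromosome and had much lower levels, at 2.47, 4.18 and 2.47 scaled FPKM in unstimulated and 1.77, 2.68 and 2.32 in stimulated control cells, and 0.581, 0.349 and 0.803 in unstimulated and 0.81, 0.592 and 1.09 in stimulated Smad7-KO cells. Its 6 Smad7-KO libraries all lay under its 6 control libraries. Gpc3 was 5.23-fold lower in Smad7-KO without TGF-β1 (log2 fold change -2.39 ± 0.34, edgeR adjusted p = 0.00107) and 2.72-fold lower with it (-1.44 ± 0.33, edgeR adjusted p = 0.0153).

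Sdc2 (ENSMUSG00000022261, chr15:32920723-33034730, plus strand) encodes syndecan-2, a transmembrane heparan sulfate carrier of mesenchymal cells. It was measured at 50.4, 62.5 and 58.7 scaled FPKM without and 50.7, 55.4 and 49.7 with TGF-β1 in control cells, and 38.1, 38.1 and 38.2 without and 37.8, 36.3 and 35.5 with TGF-β1 in Smad7-KO cells. Smad7-KO and control libraries did not overlap. Sdc2 was 1.5-fold lower in Smad7-KO without TGF-β1 (log2 fold change -0.59 ± 0.10, edgeR adjusted p = 0.00235) and 1.42-fold lower with it (-0.51 ± 0.10, edgeR adjusted p = 0.00645). Sdc1, syndecan-1, fell from 23.6 ± 0.97 (SD, n = 3) to 19.7 ± 0.448 scaled FPKM in unstimulated Smad7-KO (log2 fold change -0.26 ± 0.08, edgeR adjusted p = 0.041), a call lost in 10 of 12 omissions of a single library (highest edgeR adjusted p = 0.129, log2 fold change -0.25, without unstimulated Smad7-KO 1), and with TGF-β1 it was 22.1 ± 0.546 in control and 18.4 ± 0.854 in Smad7-KO (edgeR adjusted p = 0.0564). Sdc3, the syndecan with the highest mean level in 3 of the 4 groups, was at 82.6, 47.3 and 97.2 in unstimulated and 91.6, 71.3 and 92.7 in stimulated control cells, and 112, 113 and 118 in unstimulated and 106, 116 and 119 in stimulated Smad7-KO cells. Its Smad7-KO libraries were above the control libraries of the same stimulation, with the lowest value in unstimulated control 2, and it did not pass the test (log2 fold change 0.59 ± 0.21, edgeR adjusted p = 0.0581 without TGF-β1, and 0.42 ± 0.21, edgeR adjusted p = 0.215 with it). Sdc4 was at 77.9 ± 18.2, 59.1 ± 0.61, 58.1 ± 5.12 and 45 ± 2.41 scaled FPKM in control without and with TGF-β1 and in Smad7-KO without and with it, and its log2 fold change in Smad7-KO without TGF-β1 was -0.42 ± 0.14 (edgeR adjusted p = 0.0504).

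The other glypicans were not called in any comparison. In the same order of groups, Gpc1 was at 3.54 ± 0.835, 3.92 ± 0.301, 4.19 ± 0.256 and 5.42 ± 0.223 scaled FPKM, Gpc2 at 0.937 ± 0.304, 1.49 ± 0.336, 0.962 ± 0.0453 and 1.71 ± 0.366, and Gpc6 at 12.6 ± 4.42, 13.4 ± 2.28, 13.0 ± 0.916 and 13.2 ± 1.49. Gpc2 came nearest to the threshold with TGF-β1 in Smad7-KO cells (log2 fold change 0.83 ± 0.25, edgeR adjusted p = 0.0627). Gpc5 had 0 to 3 counts and was not tested. Over the 12 omissions of a single library, the calls of Sdc2 in both Smad7-KO comparisons, Gpc3 without TGF-β1 and Gpc4 with TGF-β1 held in all 12, while Gpc4 without TGF-β1 was lost without unstimulated Smad7-KO 2 (log2 fold change -0.48, edgeR adjusted p = 0.0513) and Gpc3 with TGF-β1 was lost without TGF-β1 control 2 (-1.29, edgeR adjusted p = 0.0707), TGF-β1 Smad7-KO 1 (-1.43, edgeR adjusted p = 0.0637) or TGF-β1 Smad7-KO 2 (-1.25, edgeR adjusted p = 0.0745).

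**Figure D3:**
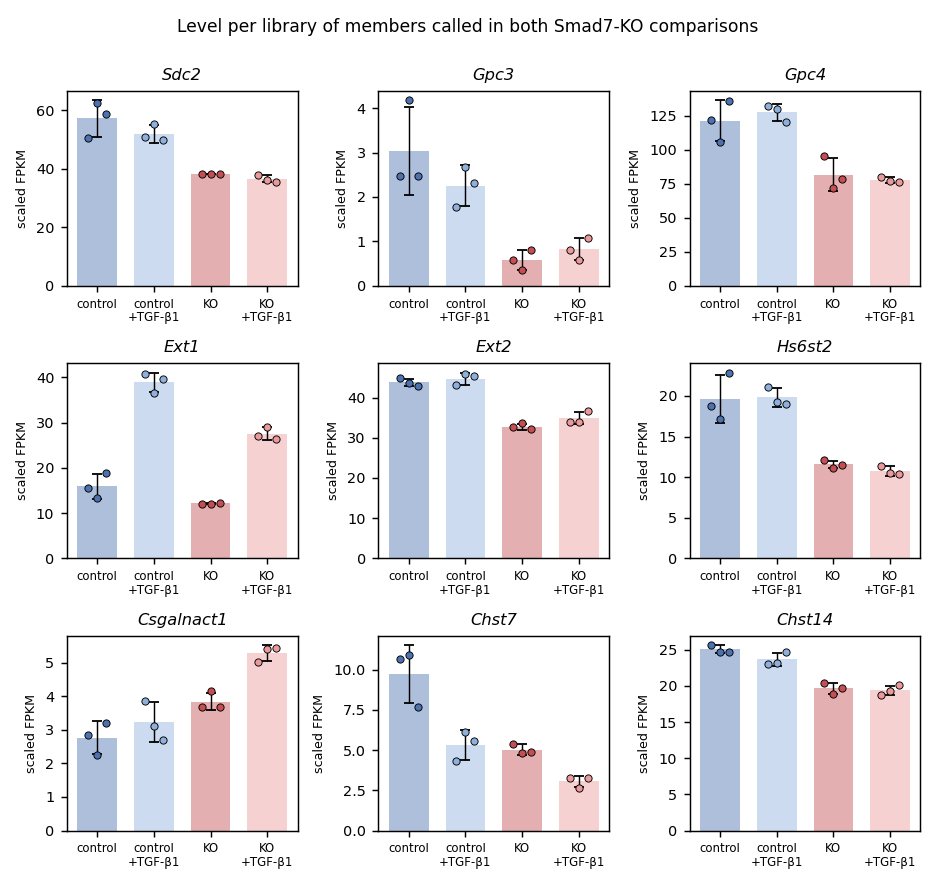
Scaled FPKM (vertical axes, linear, starting at 0) of the 9 genes called in both Smad7-KO comparisons, with bars for the mean of 3 libraries, error bars for the SD and points for libraries. Csgalnact1 was higher and the other 8 were lower in Smad7-KO with and without TGF-β1, and Gpc3 went from about 3.04 to 0.578 scaled FPKM in unstimulated cells.

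The linker that joins either chain to the core protein begins with xylose, added by Xylt1 or Xylt2. Xylt1 (ENSMUSG00000030657, chr7:117380979-117667751, plus strand) was measured at 0.548, 0.286 and 1.88 scaled FPKM without and 8.17, 1.48 and 5.01 with TGF-β1 in control cells, and 4.29, 3.12 and 3.51 without and 16, 18.5 and 11.7 with TGF-β1 in Smad7-KO cells. TGF-β1 control 2 lay below unstimulated control 3, and the other comparisons of Xylt1 did not overlap. It was 5.26-fold higher with TGF-β1 in control cells (log2 fold change 2.40 ± 0.64, edgeR adjusted p = 0.0382) and 4.23-fold higher in Smad7-KO cells (2.08 ± 0.59, edgeR adjusted p = 0.045). In Smad7-KO it was 3.91-fold higher without TGF-β1 (1.97 ± 0.63, edgeR adjusted p = 0.0432), and with TGF-β1 the log2 fold change was 1.65 ± 0.58 (edgeR adjusted p = 0.083). These calls held in few of the 12 omissions of a single library, being lost in 10, 8 and 9 of them, and without unstimulated control 2 the log2 fold change was 2.00 for TGF-β1 in control cells (edgeR adjusted p = 0.0578) and 1.57 for Smad7-KO without TGF-β1 (edgeR adjusted p = 0.0921). Without unstimulated control 3 these log2 fold changes of Xylt1 were 3.51 (edgeR adjusted p = 0.00319) and 3.08 (edgeR adjusted p = 0.00246), and without TGF-β1 control 1 the first was 1.80 (edgeR adjusted p = 0.169).

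Xylt2, the second xylosyltransferase, had the higher level of the pair in every library, at 29.7, 24.8 and 26.0 scaled FPKM in unstimulated and 26.9, 26.7 and 27.6 in stimulated control cells, and 29.8, 33.4 and 32.2 in unstimulated and 29.2, 32.1 and 31.3 in stimulated Smad7-KO cells. It was not called in any comparison. The share of Xylt1 in the sum of both was 3.23% ± 3.05, 14.6% ± 9.05, 10.3% ± 2.06 and 33.0% ± 5.15 (SD, n = 3) in control without and with TGF-β1 and in Smad7-KO without and with it. B3gat3, which completes the linker with glucuronic acid, was at 27.0 ± 8.62, 23.5 ± 2.98, 20.6 ± 0.56 and 21.0 ± 1.06 scaled FPKM and was not called.

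Heparan chains are elongated by a complex of Ext1 and Ext2, after Extl3 adds the first glucosamine. With TGF-β1, Ext1 and Extl3 were higher in both kinds of cells, and in Smad7-KO Ext1 and Ext2 were lower with and without TGF-β1. Ext1 (ENSMUSG00000061731, chr15:53064038-53346159, minus strand) was measured at 15.5, 13.4 and 18.8 scaled FPKM without and 40.6, 36.5 and 39.6 with TGF-β1 in control cells, and 12.1, 12.0 and 12.3 without and 27.1, 29.1 and 26.3 with TGF-β1 in Smad7-KO cells. The 4 groups of Ext1 did not overlap, with TGF-β1 control highest and unstimulated Smad7-KO lowest. It rose 2.45-fold with TGF-β1 in control cells (log2 fold change 1.29 ± 0.12, edgeR adjusted p = 4.3e-05) and 2.27-fold in Smad7-KO cells (1.18 ± 0.12, edgeR adjusted p = 6.17e-05). In Smad7-KO it was 1.31-fold lower without TGF-β1 (-0.39 ± 0.12, edgeR adjusted p = 0.035) and 1.41-fold lower with it (-0.50 ± 0.12, edgeR adjusted p = 0.0176).

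Ext2 (ENSMUSG00000027198, chr2:93661028-93822568, minus strand), the partner of Ext1 in the polymerase, had the highest level of its family in 3 of the 4 groups. It was measured at 44.8, 43.7 and 42.9 scaled FPKM in unstimulated and 43, 45.9 and 45.3 in stimulated control cells, and 32.6, 33.6 and 32.1 in unstimulated and 34.0, 33.9 and 36.6 in stimulated Smad7-KO cells. Ext2 was lower in the 6 libraries of Smad7-KO cells than in the 6 of control cells, while the TGF-β1 libraries of control cells overlapped the unstimulated ones. Ext2 was 1.34-fold lower in Smad7-KO without TGF-β1 (log2 fold change -0.42 ± 0.08, edgeR adjusted p = 0.0051) and 1.29-fold lower with it (-0.36 ± 0.08, edgeR adjusted p = 0.0131), and its log2 fold change with TGF-β1 was 0.03 ± 0.08 in control cells (95% interval -0.14 to 0.21) and 0.09 ± 0.08 in Smad7-KO cells (-0.09 to 0.26). Extl3 (ENSMUSG00000021978, chr14:65052060-65098106, minus strand) was at 13.3, 7.3 and 18.3 scaled FPKM without and 36.4, 26.0 and 32.9 with TGF-β1 in control cells, and 16.7, 16.5 and 17.9 without and 39.9, 43.8 and 36.7 with TGF-β1 in Smad7-KO cells. Its stimulated libraries lay above all unstimulated ones, and it rose 2.44-fold in control cells (log2 fold change 1.29 ± 0.26, edgeR adjusted p = 0.008) and 2.36-fold in Smad7-KO cells (1.24 ± 0.26, edgeR adjusted p = 0.0085). For Extl3 the log2 fold change in Smad7-KO was 0.39 ± 0.25 without TGF-β1 (edgeR adjusted p = 0.252) and 0.34 ± 0.25 with it (edgeR adjusted p = 0.387).

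Extl1, a relative with glucosamine transferase activity, was at 1.66, 1.86 and 1.76 scaled FPKM in unstimulated and 0.98, 0.996 and 1.27 in stimulated control cells, and 1.19, 1.43 and 1.46 in unstimulated and 0.503, 0.91 and 0.766 in stimulated Smad7-KO cells. The stimulated libraries were the lower ones in both kinds of cells, and the log2 fold change was -0.91 ± 0.21 in Smad7-KO cells (edgeR adjusted p = 0.0163) and -0.70 ± 0.20 in control cells (edgeR adjusted p = 0.059). Extl2 was not called, at 11.4 ± 0.942, 10.0 ± 0.377, 10.2 ± 0.193 and 9.71 ± 0.634 scaled FPKM in control without and with TGF-β1 and in Smad7-KO without and with it. The calls of Ext1 and Extl3 with TGF-β1 and of Ext2 in Smad7-KO without TGF-β1 held in all 12 omissions of a single library, whereas the call of Ext1 in Smad7-KO was lost in 8 of 12 without TGF-β1 (highest edgeR adjusted p = 0.104, log2 fold change -0.38, without unstimulated Smad7-KO 2) and 4 of 12 with it (0.0742, -0.49, without TGF-β1 Smad7-KO 1), that of Ext2 with TGF-β1 in 4 (0.0699, -0.33, without TGF-β1 control 2) and that of Extl1 in 3 (0.0704, -0.85, without unstimulated Smad7-KO 3).

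Sulfation of heparan sulfate begins with the Ndst enzymes, which replace acetyl with sulfate groups on glucosamine. Ndst1, the one with the highest mean level in Smad7-KO cells and over the 12 libraries, was at 10.3, 3.4 and 20.2 scaled FPKM without and 15.9, 8.17 and 11.3 with TGF-β1 in control cells, and 23.6, 20.8 and 20.7 without and 17.3, 19.2 and 14.7 with TGF-β1 in Smad7-KO cells. Its control libraries were widely spread, with the lowest value in unstimulated control 2, and it was not called (log2 fold change 0.94 ± 0.46 in Smad7-KO without TGF-β1, edgeR adjusted p = 0.137). Ndst2 was at 14.6, 8.96 and 15.2 in unstimulated and 12.6, 11.4 and 11.6 in stimulated control cells, and 20.6, 20.1 and 20.04 in unstimulated and 12.8, 15.9 and 14.8 in stimulated Smad7-KO cells. Unstimulated Smad7-KO was above the other 3 groups, and Ndst2 was 1.56-fold higher than in unstimulated control (log2 fold change 0.64 ± 0.17, edgeR adjusted p = 0.0216), a call that was lost without any 1 of the unstimulated Smad7-KO libraries (highest edgeR adjusted p = 0.0671, log2 fold change 0.63, without unstimulated Smad7-KO 1). With TGF-β1 its log2 fold change in Smad7-KO was 0.29 ± 0.17 (edgeR adjusted p = 0.277). Ndst3 was at 0.696 ± 0.25, 0.838 ± 0.181, 0.611 ± 0.0696 and 0.696 ± 0.197 scaled FPKM and was not called, and Ndst4, with 0 to 1 counts, was not tested.

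Further sulfate groups are placed on heparan sulfate by Hs2st1 on the uronic acid, by the Hs6st enzymes at the 6-O position and by the Hs3st enzymes at the 3-O position of glucosamine. Hs6st2 (ENSMUSG00000062184, chrX:51387212-51681856, minus strand) had the highest mean level of these in control cells and lay below Hs2st1 and Hs6st1 in Smad7-KO cells, at 18.8, 17.2 and 22.9 scaled FPKM without and 21.1, 19.3 and 19 with TGF-β1 in control cells, and 12.1, 11.2 and 11.5 without and 11.4, 10.5 and 10.4 with TGF-β1 in Smad7-KO cells. Every Smad7-KO library lay under every control library. Hs6st2 was 1.69-fold lower without TGF-β1 (log2 fold change -0.76 ± 0.11, edgeR adjusted p = 0.00134) and 1.84-fold lower with it (-0.88 ± 0.11, edgeR adjusted p = 7.24e-04), and both calls held in all 12 omissions of a single library. Its paralog Hs6st1, in control without and with TGF-β1 and then in Smad7-KO without and with it, was at 15.2 ± 4.79, 16.7 ± 0.647, 12.4 ± 0.292 and 11.6 ± 0.761, with log2 fold changes in Smad7-KO of -0.30 ± 0.19 (edgeR adjusted p = 0.232) and -0.52 ± 0.19 (edgeR adjusted p = 0.0885).

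Hs2st1 was measured at 8.74, 9.73 and 12.1 scaled FPKM in unstimulated and 13.8, 12.2 and 13.2 in stimulated control cells, and 12.7, 12.1 and 12.8 in unstimulated and 16.8, 16.6 and 16.2 in stimulated Smad7-KO cells. TGF-β1 Smad7-KO was above all other groups, and Hs2st1 rose 1.32-fold with TGF-β1 in Smad7-KO cells (log2 fold change 0.40 ± 0.12, edgeR adjusted p = 0.0497), a call lost in 9 of 12 omissions of a single library (highest edgeR adjusted p = 0.187, log2 fold change 0.38, without unstimulated Smad7-KO 2), with 0.36 ± 0.12 (edgeR adjusted p = 0.091) in control cells. Of the 3-O sulfotransferases 3 were tested and none was called. In the same order of groups, Hs3st1 was at 1.34 ± 0.284, 1.08 ± 0.151, 1.64 ± 0.0293 and 1.61 ± 0.314, Hs3st3a1 at 0.655 ± 0.0957, 0.449 ± 0.0693, 0.44 ± 0.0751 and 0.38 ± 0.181, and Hs3st3b1 at 0.148 ± 0.0713, 0.135 ± 0.0286, 0.0887 ± 0.0435 and 0.0676 ± 0.0583 scaled FPKM. Hs3st3a1 and Hs3st3b1 have near-identical catalytic domains, so reads between them are uncertain. Hs6st3 (0 to 5 counts), Hs3st4 (0 to 5), Hs3st5 (0 to 3), Hs3st6 (1 to 15) and Hs3st2 (0 in every library) were not tested.

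Sulf1 and Sulf2 are secreted enzymes that remove 6-O sulfate groups from finished heparan sulfate. Sulf1 was at 75, 49.7 and 98.5 scaled FPKM without and 99.4, 78.8 and 84.6 with TGF-β1 in control cells, and 62.7, 56.2 and 57.9 without and 64.1, 68.2 and 59.6 with TGF-β1 in Smad7-KO cells. It was not called, and its log2 fold change in Smad7-KO was -0.34 ± 0.20 (edgeR adjusted p = 0.205) without TGF-β1, where the groups overlapped, and -0.45 ± 0.20 (edgeR adjusted p = 0.155) with it, where they did not. Sulf2 (ENSMUSG00000006800, chr2:166073089-166155663, minus strand) was at 48.8, 32.2 and 56.2 in unstimulated and 69.2, 61.1 and 64.8 in stimulated control cells, and 52.1, 47.1 and 47.2 in unstimulated and 78.3, 73.8 and 68.2 in stimulated Smad7-KO cells. The stimulated libraries were the higher ones in both kinds of cells. Sulf2 was 1.5-fold higher with TGF-β1 in Smad7-KO (log2 fold change 0.59 ± 0.17, edgeR adjusted p = 0.0452), a call lost in 10 of 12 omissions of a single library (highest edgeR adjusted p = 0.161, log2 fold change 0.54, without TGF-β1 Smad7-KO 1), and in control the log2 fold change was 0.51 ± 0.17 (edgeR adjusted p = 0.0937). The gene overlaps Ncoa3 on the opposite strand, and whether the counting used strand is not given in the sources used here.

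Chondroitin chains are started by Csgalnact1 and Csgalnact2 and elongated by Chsy1 and Chsy3, which are chondroitin synthases. Chsy1 (ENSMUSG00000032640, chr7:66109515-66173789, plus strand) was measured at 2.37, 4.11 and 2.84 scaled FPKM without and 7.0, 6.9 and 6.77 with TGF-β1 in control cells, and 2.5, 2.65 and 2.15 without and 6.01, 6.12 and 5.75 with TGF-β1 in Smad7-KO cells. All stimulated libraries lay above all unstimulated ones. Chsy1 rose 2.22-fold with TGF-β1 in control cells (log2 fold change 1.15 ± 0.17, edgeR adjusted p = 0.0012) and 2.45-fold in Smad7-KO cells (1.29 ± 0.17, edgeR adjusted p = 4.92e-04), and both calls held in all 12 omissions of a single library. Chsy3 was far lower, at 0.184, 0.0585 and 0.216 in unstimulated and 0.676, 0.472 and 0.348 in stimulated control cells, and 0.423, 0.293 and 0.326 in unstimulated and 0.504, 0.401 and 0.676 in stimulated Smad7-KO cells, from 3 to 49 counts a library. Only the unstimulated control libraries stood apart, below the rest. Chsy3 was 3.16-fold higher with TGF-β1 in control cells (log2 fold change 1.66 ± 0.42, edgeR adjusted p = 0.0305), a call lost without unstimulated control 1 (1.79, edgeR adjusted p = 0.0721), TGF-β1 control 1 (1.38, edgeR adjusted p = 0.135), TGF-β1 control 2 (1.70, edgeR adjusted p = 0.0668) or TGF-β1 Smad7-KO 1 (1.66, edgeR adjusted p = 0.0502), and in Smad7-KO cells the log2 fold change was 0.60 ± 0.38 (edgeR adjusted p = 0.468).

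Csgalnact1 (ENSMUSG00000036356, chr8:68356781-68735146, minus strand) was the 1 member higher in Smad7-KO in both comparisons. It was at 2.84, 2.25 and 3.21 scaled FPKM without and 3.87, 3.13 and 2.69 with TGF-β1 in control cells, and 3.69, 4.15 and 3.69 without and 5.01, 5.42 and 5.44 with TGF-β1 in Smad7-KO cells. Smad7-KO libraries lay above the control libraries of the same stimulation, by 1.39-fold without TGF-β1 (log2 fold change 0.47 ± 0.16, edgeR adjusted p = 0.0494) and 1.64-fold with it (0.71 ± 0.16, edgeR adjusted p = 0.0133). The first call was lost in 10 of 12 omissions of a single library (highest edgeR adjusted p = 0.141, log2 fold change 0.42, without unstimulated Smad7-KO 2; 0.117 and 0.35 without unstimulated control 2), and the second without TGF-β1 control 2 (0.70, edgeR adjusted p = 0.0553), TGF-β1 control 3 (0.60, edgeR adjusted p = 0.0593) or TGF-β1 Smad7-KO 2 (0.70, edgeR adjusted p = 0.0536). Csgalnact2, the polymerizing gene of highest level, was at 11.6, 13.3 and 14.3 in unstimulated and 11.8, 10.8 and 10.3 in stimulated control cells, and 11.8, 11.3 and 11.9 in unstimulated and 9.35, 9.14 and 9.19 in stimulated Smad7-KO cells. TGF-β1 Smad7-KO was below the other groups, and Csgalnact2 was not called (log2 fold change with TGF-β1 of -0.26 ± 0.10, edgeR adjusted p = 0.154, in control and -0.34 ± 0.10, edgeR adjusted p = 0.0516, in Smad7-KO).

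Sulfate is placed on chondroitin at the 4-O position by Chst11, Chst12 and Chst13, at the 6-O position by Chst3 and Chst7, and on dermatan by Chst14, while Chst15 adds a further 6-O sulfate to 4-sulfated units. Chst11 and Chst7 moved in opposite directions in the comparisons where both were called. Chst11 (ENSMUSG00000034612, chr10:82985498-83195900, plus strand) was measured at 4.11, 3.05 and 6.67 scaled FPKM without and 12.5, 8.82 and 10.1 with TGF-β1 in control cells, and 7.97, 7.91 and 8.23 without and 15.7, 16 and 13.5 with TGF-β1 in Smad7-KO cells. Every comparison of Chst11 was free of overlap, with unstimulated control lowest and TGF-β1 Smad7-KO highest. It rose with TGF-β1 2.27-fold in control cells (log2 fold change 1.18 ± 0.23, edgeR adjusted p = 0.00752) and 1.88-fold in Smad7-KO cells (0.91 ± 0.23, edgeR adjusted p = 0.0263). In Smad7-KO Chst11 was 1.74-fold higher without TGF-β1 (0.80 ± 0.23, edgeR adjusted p = 0.0309), and 0.52 ± 0.23 (edgeR adjusted p = 0.156) with it.

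Chst7 (ENSMUSG00000037347, chrX:20059560-20097521, plus strand) was at 10.6, 10.9 and 7.67 scaled FPKM in unstimulated and 4.31, 6.16 and 5.55 in stimulated control cells, and 5.41, 4.81 and 4.88 in unstimulated and 3.27, 2.65 and 3.25 in stimulated Smad7-KO cells. Unstimulated control was highest and TGF-β1 Smad7-KO lowest, with no overlap in any of the 4 comparisons. It was 1.82-fold lower with TGF-β1 in control cells (log2 fold change -0.87 ± 0.17, edgeR adjusted p = 0.00791), 1.64-fold lower with TGF-β1 in Smad7-KO cells (-0.72 ± 0.18, edgeR adjusted p = 0.0233), 1.94-fold lower in Smad7-KO without TGF-β1 (-0.95 ± 0.17, edgeR adjusted p = 0.00383) and 1.75-fold lower in Smad7-KO with it (-0.80 ± 0.18, edgeR adjusted p = 0.0129). Chst3 (ENSMUSG00000057337, chr10:60181532-60219260, minus strand), the other 6-O sulfotransferase, was at 0.11, 0.112 and 0.173 without and 0.344, 0.3 and 0.438 with TGF-β1 in control cells, and 0.0811, 0.141 and 0.0852 without and 0.261, 0.348 and 0.317 with TGF-β1 in Smad7-KO cells, from 10 to 55 counts a library. All stimulated libraries lay above all unstimulated ones, by 2.7-fold in control cells (log2 fold change 1.43 ± 0.30, edgeR adjusted p = 0.00967) and 2.98-fold in Smad7-KO cells (1.58 ± 0.30, edgeR adjusted p = 0.0057). Both 6-O genes were thus called with TGF-β1 in both kinds of cells, the rarer transcript higher and the more abundant one lower.

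Chst12 had the highest mean level of the chondroitin sulfotransferases, at 39.7, 46.8 and 30.2 scaled FPKM in unstimulated and 29.8, 39.1 and 31.1 in stimulated control cells, and 25.4, 26.3 and 27.9 in unstimulated and 25.1, 25.1 and 25.5 in stimulated Smad7-KO cells. Control libraries lay above Smad7-KO libraries in all cases, and Chst12 was 1.47-fold lower in Smad7-KO without TGF-β1 (log2 fold change -0.55 ± 0.15, edgeR adjusted p = 0.0259), with -0.40 ± 0.15 (edgeR adjusted p = 0.107) under TGF-β1. Chst14 (ENSMUSG00000074916, chr2:118926496-118928585, plus strand) was at 25.7, 24.7 and 24.7 without and 23.1, 23.2 and 24.7 with TGF-β1 in control cells, and 20.4, 18.9 and 19.6 without and 18.8, 19.2 and 20.1 with TGF-β1 in Smad7-KO cells. Its Smad7-KO libraries lay under all control libraries, and it was 1.28-fold lower without TGF-β1 (log2 fold change -0.35 ± 0.08, edgeR adjusted p = 0.013) and 1.22-fold lower with it (-0.29 ± 0.08, edgeR adjusted p = 0.0396).

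Chst15 (ENSMUSG00000030930, chr7:132235780-132317228, minus strand) was at 0.622, 0.487 and 0.803 scaled FPKM in unstimulated and 1.26, 1.06 and 1.2 in stimulated control cells, and 0.865, 1.06 and 1.12 in unstimulated and 1.02, 1.04 and 1.01 in stimulated Smad7-KO cells. Unstimulated control was below the other 3 groups. Chst15 was 1.82-fold higher with TGF-β1 in control cells (log2 fold change 0.87 ± 0.19, edgeR adjusted p = 0.0128) and 1.58-fold higher in Smad7-KO without TGF-β1 (0.66 ± 0.19, edgeR adjusted p = 0.0291). With TGF-β1 its log2 fold change in Smad7-KO was -0.19 ± 0.18 (edgeR adjusted p = 0.5), and in Smad7-KO cells that with TGF-β1 was 0.01 ± 0.18 (edgeR adjusted p = 0.987). Chst15 overlaps Fgfr2 on the same strand, which had a mean of 729.8 counts against 110 for Chst15, so reads of the shared part are uncertain. Chst13, with 1 to 14 counts, was not tested.

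Among the chondroitin sulfotransferases, the TGF-β1 calls of Chst11 and Chst7 in control cells, of Chst3 in Smad7-KO cells and the Smad7-KO call of Chst7 without TGF-β1 held in all 12 omissions of a single library. The others were lost in at least 1, with the highest edgeR adjusted p being 0.0501 for Chst3 with TGF-β1 in control cells (log2 fold change 1.28, without TGF-β1 control 3), 0.0978 for Chst11 (0.90, without unstimulated Smad7-KO 2) and 0.106 for Chst7 (-0.62, without TGF-β1 Smad7-KO 2) with TGF-β1 in Smad7-KO cells, 0.0863 for Chst11 (0.78, without unstimulated Smad7-KO 3), 0.0894 for Chst12 (-0.52, without unstimulated Smad7-KO 1), 0.0666 for Chst14 (-0.32, without unstimulated Smad7-KO 2) and 0.0995 for Chst15 (0.59, without unstimulated Smad7-KO 3) in Smad7-KO without TGF-β1, 0.0584 for Chst15 with TGF-β1 in control cells (0.81, without TGF-β1 control 1), and 0.0714 for Chst7 (-0.68, without TGF-β1 control 2) and 0.148 for Chst14 (-0.27, without TGF-β1 Smad7-KO 1) in Smad7-KO with TGF-β1. Without unstimulated control 2, the library that stood apart, Chst11 (0.58, edgeR adjusted p = 0.0528), Chst12 (-0.39, edgeR adjusted p = 0.0529) and Chst15 (0.51, edgeR adjusted p = 0.0634) were not called in Smad7-KO without TGF-β1.

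The rule also took in sulfotransferases that act on other sugars, and 1 of them, Chst1, had the largest log2 fold change with TGF-β1 of the 43 members in Smad7-KO cells. Chst1 (ENSMUSG00000027221, chr2:92599707-92615250, plus strand), which sulfates galactose in keratan sulfate, was measured at 1.79, 2.6 and 1.83 scaled FPKM without and 6.94, 7.24 and 6.02 with TGF-β1 in control cells, and 1.55, 2.02 and 2.44 without and 7.69, 8.71 and 9.93 with TGF-β1 in Smad7-KO cells. All stimulated libraries lay far above all unstimulated ones. Chst1 rose 3.26-fold with TGF-β1 in control cells (log2 fold change 1.71 ± 0.20, edgeR adjusted p = 1.82e-04) and 4.36-fold in Smad7-KO cells (2.13 ± 0.20, edgeR adjusted p = 3.58e-05), and both calls held in all 12 omissions of a single library. Chst10, which makes the HNK-1 epitope together with a glucuronyltransferase, was at 2.37, 1.56 and 2.29 in unstimulated and 2.01, 2.05 and 2.07 in stimulated control cells, and 2.04, 1.38 and 1.27 in unstimulated and 1.32, 1.19 and 1.27 in stimulated Smad7-KO cells. With TGF-β1 the groups did not overlap and Chst10 was 1.62-fold lower in Smad7-KO (log2 fold change -0.70 ± 0.21, edgeR adjusted p = 0.0471), a call lost in 9 of 12 omissions of a single library (highest edgeR adjusted p = 0.156, log2 fold change -0.66, without TGF-β1 Smad7-KO 2).

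Chst2 and Chst8 were not called, with levels in control without and with TGF-β1 and in Smad7-KO without and with it of 0.581 ± 0.297, 0.901 ± 0.108, 0.345 ± 0.0675 and 0.548 ± 0.0229 scaled FPKM for Chst2 and of 0.0967 ± 0.0444, 0.273 ± 0.0621, 0.114 ± 0.0291 and 0.31 ± 0.183 for Chst8. Chst8, read from 3 to 31 counts, had log2 fold changes with TGF-β1 of 1.52 ± 0.52 in control cells (edgeR adjusted p = 0.107) and 1.44 ± 0.49 in Smad7-KO cells (edgeR adjusted p = 0.0994). B3gat2, at 0.0975 ± 0.0816, 0.125 ± 0.0291, 0.126 ± 0.0417 and 0.194 ± 0.0647, was not called and overlaps the more abundant Smap1 on the opposite strand. Chst5 (0 to 8 counts) and Chst4, Chst9 and B3gat1 (0 in every library) were not tested.

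Whether the Smad7-KO effect differed between stimulated and unstimulated cells was tested by the interaction, and 0 of the 43 members were called, against 0.0198% of all genes tested. DESeq2 and limma also called 0 at an adjusted p of 0.05 or less. At an unadjusted p under 0.05, a looser threshold, edgeR gave 1 member, Chst15. The interaction of Chst15 was -0.85 ± 0.26 on the log2 scale (edgeR adjusted p = 0.98), which was also the lowest adjusted p of the 43. For Gpc3 the interaction was 0.94 ± 0.47 (95% interval -0.09 to 1.98), and for Ext1 it was -0.11 ± 0.17 (-0.47 to 0.26).

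Because FPKM is per length, the make-up of each enzyme family could be followed as the share of each gene in the family's summed level. Division by length does not remove the length trend of a library, and the shares were not recomputed without it. Sdc3 took 20.4% of the syndecan sum in unstimulated control 2, the library with the steepest trend, against 35.8% and 40.3% in unstimulated control 1 and 3. In the Ext and Extl family, Ext2 took 51.3% ± 5.33 in unstimulated and 35.5% ± 2.85 in stimulated control cells, and 44.6% ± 1.19 in unstimulated and 30.9% ± 2.29 in stimulated Smad7-KO cells (SD, n = 3). Ext1 took 18.4% ± 1.45, 30.7% ± 0.169, 16.5% ± 0.131 and 24.4% ± 0.344 and Extl3 took 14.8% ± 5.1, 25% ± 3.01, 23.2% ± 0.892 and 35.5% ± 1.88, so that Extl3 had the largest share in TGF-β1 Smad7-KO. Among the chondroitin polymerizing genes, the share of Csgalnact2 was 68.5% ± 1.05, 50.8% ± 0.282, 63.8% ± 2.18 and 43.9% ± 0.763 in the same order, that of Chsy1 was 16.2% ± 4.04, 32.1% ± 1.94, 13.3% ± 1.25 and 28.4% ± 0.941, and that of Csgalnact1 was 14.5% ± 2.8, 14.9% ± 1.59, 21.0% ± 1.33 and 25.2% ± 1.03. Among the chondroitin and dermatan sulfotransferases, Chst11 took 6.04% ± 3.09, 14.2% ± 3.2, 13.3% ± 0.0631 and 23.5% ± 2.02, and Chst7 took 12.2% ± 1.18, 7.14% ± 0.964, 8.32% ± 0.61 and 4.77% ± 0.576. Sdc3 took 32.2% ± 10.4, 38.9% ± 4.12, 49.6% ± 1.05 and 53.2% ± 1.61 of the syndecan sum, and Sulf2 took 38.3% ± 1.75, 42.7% ± 1.44, 45.3% ± 0.361 and 53.4% ± 1.51 of the sum of Sulf1 and Sulf2. With 3 libraries against 3 the smallest two-sided exact permutation p is 0.1, which 92 of the 172 shares tested reached, and the smallest after Benjamini-Hochberg adjustment over the 172 exact tests was 0.187, so these shares stand as descriptions.

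**Figure D4:**
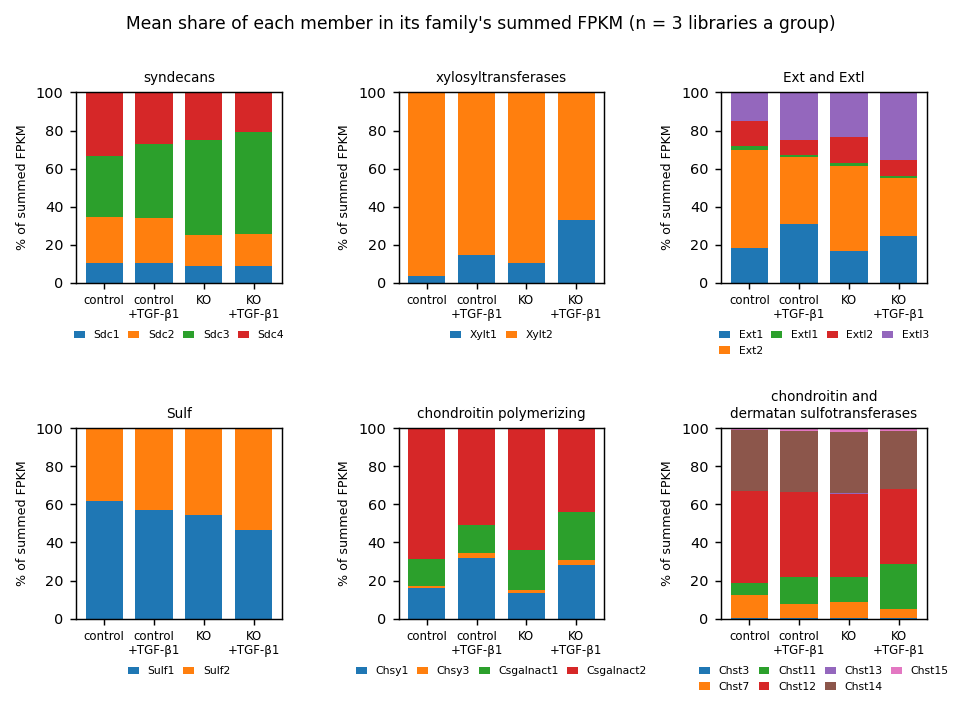
Mean share (%) of each gene in the summed scaled FPKM of its family (stacked bars, 3 libraries a group) for 6 families in the 4 groups. Ext2 shrinks from 51.3% to 30.9% of the Ext and Extl sum and Csgalnact2 from 68.5% to 43.9% of the chondroitin polymerizing sum between unstimulated control and TGF-β1 Smad7-KO.

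The other genes of the pathway, which the naming rule does not reach, were taken from a list of 51, of which 49 were tested. In control cells TGF-β1 gave 6 higher and 3 lower, against 5.04% and 3.33% of all genes, and in Smad7-KO cells it gave 5 higher and 3 lower, against 5.33% and 4.9%. Papss2, which makes the sulfate donor, was at 7.76, 5.06 and 8.87 scaled FPKM without and 16.9, 15.1 and 15.0 with TGF-β1 in control cells, and 6.62, 6.19 and 6.22 without and 12.0, 12.4 and 11.1 with TGF-β1 in Smad7-KO cells. Stimulated and unstimulated libraries of Papss2 did not overlap, and it rose 2.16-fold in control cells (log2 fold change 1.11 ± 0.17, edgeR adjusted p = 0.00123) and 1.87-fold in Smad7-KO cells (0.90 ± 0.17, edgeR adjusted p = 0.00427). B4galt7, which adds the second linker sugar, rose 1.64-fold in control cells (0.72 ± 0.14, edgeR adjusted p = 0.00749) and 1.92-fold in Smad7-KO cells (0.94 ± 0.14, edgeR adjusted p = 0.00101). The chondroitin sulfate core protein Cspg4 (NG2), at 0.466 scaled FPKM in unstimulated control, rose 2.48-fold (1.31 ± 0.30, edgeR adjusted p = 0.0162) and 2.93-fold (1.55 ± 0.34, edgeR adjusted p = 0.0112). In the omissions of a single library Papss2 and B4galt7 were called in all 12, and Cspg4 was lost in 3 in each kind of cell (highest edgeR adjusted p = 0.0787, log2 fold change 1.16, without unstimulated control 1, and 0.0523, 1.28, without unstimulated Smad7-KO 2).

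In Smad7-KO, 10 of the 49 were higher and 7 lower without TGF-β1, against 12.1% and 13.7% of all genes, and 9 were higher and 4 lower with it, against 5.72% and 7.23%. Those higher were mostly genes that break the chains down: of 17 turnover genes tested, 8 were higher and 0 lower in each comparison, against 12.1% and 5.72% of all genes called higher. Hpse, the heparanase that cleaves heparan sulfate, was at 27.3, 21.0 and 26.8 scaled FPKM in unstimulated and 18.2, 15.2 and 19 in stimulated control cells, and 65.2, 66.8 and 62.5 in unstimulated and 46.7, 45.7 and 43.6 in stimulated Smad7-KO cells. Every Smad7-KO library lay above every control library, by 2.59-fold without TGF-β1 (log2 fold change 1.37 ± 0.12, edgeR adjusted p = 4.21e-05) and 2.59-fold with it (1.38 ± 0.12, edgeR adjusted p = 4.79e-05). Among the lysosomal enzymes of the turnover list, Naglu was 1.58-fold and 1.57-fold higher (edgeR adjusted p = 0.00636 and 0.00813), and Idua, Hgsnat, Gusb and Galns were also higher in both comparisons. Hpse and Naglu were called in all 12 omissions of a single library in both comparisons. The count of 8 became 1 when only the unstimulated libraries were fitted, 13 (12 higher and 1 lower) without unstimulated control 3, 4 without any 1 of the unstimulated Smad7-KO libraries, and, with TGF-β1, 4 without TGF-β1 control 2 or TGF-β1 Smad7-KO 1 and 5 without TGF-β1 control 1 or TGF-β1 Smad7-KO 2. Macrophages are known to be rich in lysosomal enzymes, and 6 and 5 of the 11 macrophage markers were higher in the same comparisons, with the part of these cells in the turnover genes not tested.

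Of 10 genes that supply precursors, 3 were lower in Smad7-KO without TGF-β1 and 1 with it, against 13.7% and 7.23% of all genes, and 0 were higher, against 12.1% and 5.72%. Ugdh, the enzyme that makes the glucuronic acid donor, was 1.34-fold lower without TGF-β1 (log2 fold change -0.43 ± 0.10, edgeR adjusted p = 0.012) and 1.27-fold lower with it (-0.35 ± 0.10, edgeR adjusted p = 0.0367), and Ugp2 and Uxs1 were 1.29-fold and 1.32-fold lower without TGF-β1 (edgeR adjusted p = 0.0366 and 0.0266). Chpf, a partner of the chondroitin synthases, was 1.8-fold lower without TGF-β1 (-0.85 ± 0.14, edgeR adjusted p = 0.00198) and 1.6-fold lower with it (-0.68 ± 0.14, edgeR adjusted p = 0.00796). Of the core proteins outside the naming rule, Cspg4 was 3.47-fold lower (-1.79 ± 0.34, edgeR adjusted p = 0.00453) and 2.93-fold lower (-1.55 ± 0.30, edgeR adjusted p = 0.00651), Ptprz1 was 2.76-fold lower (-1.46 ± 0.29, edgeR adjusted p = 0.00555) and 2.48-fold lower (-1.31 ± 0.28, edgeR adjusted p = 0.0112), and Bcan was 2.18-fold lower without TGF-β1 (-1.13 ± 0.37, edgeR adjusted p = 0.0461). The calls of Chpf, Cspg4 and Ptprz1 held in all 12 omissions of a single library, while that of Bcan was lost in 12 (highest edgeR adjusted p = 0.152, log2 fold change -0.88, without unstimulated Smad7-KO 2), that of Ugp2 in 10 (0.114, -0.35, without unstimulated Smad7-KO 1), that of Uxs1 in 3 (0.102, -0.35, without unstimulated Smad7-KO 2) and that of Ugdh in 1 without TGF-β1 (0.0551, -0.40, without unstimulated Smad7-KO 1) and 9 with it (0.181, -0.29, without TGF-β1 control 2). Cspg4 is also a pericyte marker, and the summed level of the smooth muscle and pericyte markers, Cspg4 included, was at most 9.16 scaled FPKM in any library. Of the 5 markers of this list that were tested, 2 were called lower in Smad7-KO without TGF-β1 and 1 with it, and 0 higher. Their median log2 fold change was -0.76 without TGF-β1 and -0.58 with it. The part of these cells in the Cspg4 values was not tested.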

How the data were processed

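The 12 libraries (polyA RNA, NEBNext Ultra kit) were given by the authors as 2 tables of the whole series, one with the deposited raw read counts and one with deposited FPKM values for each gene and library. The submitters' processing notes name CASAVA, TopHat2 2.0, Cufflinks 2.1.1, HTSeq 0.6.1, mm10 and GRCm38.p6, without roles, and whether counting used strand is not given in the sources used here. In all 35275 genes the deposited FPKM equalled the count divided by length and by the library's total (relative tolerance 1e-06), so it carries no scaling beyond the total. The study's own tests used DESeq2 at an adjusted p of 0.05 or less.

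Counts were tested with edgeR 4.0.16 in R 4.3.3: filterByExpr with a minimum count of 10, TMM scaling, a robust quasi-likelihood fit to all 12 libraries with 1 mean per group, and Benjamini-Hochberg adjustment over 15150 genes, of which 43 of the 55 members were part. Scaled FPKM is the count over length and TMM-scaled library size. Values are mean ± SD for levels and shares and ± SE for log2 fold changes. Values per library are given for the member of highest mean level in each role and for up to 10 members called without overlap in each comparison, with up to 4 further pathway genes, and Sdc3, Sdc1 and Hs2st1 were added after their values were seen. The members and lists were chosen with earlier results of these data known. Replicate numbers come from the labels. The correlation of same-numbered libraries' deviations was -0.319 to 0.487 over pairs of groups, so the numbers were not taken to pair the libraries. The 0.487 was between unstimulated control 2 and TGF-β1 control 2, and the other values were at most 0.0728. These 2 second control libraries thus shared part of their deviation. Alternatives were DESeq2 1.42.0, its size factors, only the libraries of the comparison, no count filter, limma 3.58.1 on log2(FPKM + 1) and log2(FPKM + 0.1), removal of a length trend (loess span 0.3), a replicate block and omission of libraries. The steps were tested on simulated data. Some genes of the turnover list enter its counts and are not reported here by name. Depth was 19056916 to 25371321 counts a library, and 3 libraries a group limit the precision.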

Additional observations from a re-analysis of the deposited data

Results flagged for a closer look

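Chst15, which adds a second sulfate to chondroitin units, had log2 fold changes of opposite sign in the 2 Smad7-KO comparisons, with no overlap between the libraries in either. Its log2 fold change in Smad7-KO was 0.66 without TGF-β1, where all 3 Smad7-KO libraries (0.865 to 1.12 scaled FPKM) were above all 3 control libraries (0.487 to 0.803), and -0.19 with TGF-β1, where all 3 Smad7-KO libraries (1.01 to 1.04) were below all 3 control libraries (1.06 to 1.26). The difference itself, tested as the interaction, was -0.85 ± 0.26 (edgeR, unadjusted p = 0.00734, adjusted p = 0.98), so it did not pass the threshold over all genes. Without unstimulated control 2, the log2 fold change of 0.66 became 0.51 and was not called. Chst15 had 43 to 157 counts a library and overlaps Fgfr2 (mean 729.8 counts) on the same strand, so its reads are partly uncertain.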

How the results depend on the processing

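The 4 counts of called members (10 and 11 for TGF-β1 in control and Smad7-KO cells, 15 and 10 for Smad7-KO without and with TGF-β1) depended on the libraries in the fit. With only the libraries of the comparison they were 3, 19, 3 and 22. Leaving out any 1 of the 12 libraries gave 7 to 17, 5 to 17, 5 to 22 and 4 to 23, and 0 for the interaction throughout. The libraries whose omission moved a count by over 1.5 times were unstimulated control 3 (17) for TGF-β1 in control cells, unstimulated control 2 (17), each unstimulated Smad7-KO library (6, 5 and 5) and TGF-β1 Smad7-KO 1, 2 and 3 (5, 6 and 7) for TGF-β1 in Smad7-KO cells, unstimulated control 1 (9) and each unstimulated Smad7-KO library (8, 5 and 6) for Smad7-KO without TGF-β1, and unstimulated control 2 and 3 (23 and 20), TGF-β1 control 2 and 3 (4 and 5) and TGF-β1 Smad7-KO 1 and 2 (5 and 4) for Smad7-KO with it. Leaving out both second control libraries, chosen after seeing the data, gave 9, 17, 18 and 16. Without the count filter Smad7-KO without TGF-β1 gave 9, and limma on log2(FPKM + 1) without a filter gave 6 for TGF-β1 in Smad7-KO cells and 9 for Smad7-KO without TGF-β1, while limma on log2(FPKM + 0.1) gave 7 for TGF-β1 in Smad7-KO cells. Removing the length trend gave 14, 16, 19 and 16, and Smad7-KO with TGF-β1 was at 18 with the block added. DESeq2 gave 11, 14, 20 and 13, and its size factors 10, 11, 15 and 8. The replicate block gave 10, 10, 13 and 9, and 0 for the interaction, and the numbers were not taken as a pairing. Under the block the calls of Xylt1 with TGF-β1 in control cells (edgeR adjusted p = 0.0534), of Ext1 (0.0513) and Csgalnact1 (0.0717) in Smad7-KO without TGF-β1 and of Chst14 in Smad7-KO with TGF-β1 (0.0748) were lost. For the turnover genes the 8 and 8 called in Smad7-KO without and with TGF-β1 became 4 to 13 and 4 to 10 over the omissions of a library, and 1 without TGF-β1 when only those libraries were fitted. Of the 46 calls of members, all 46 kept their direction in every alternative and 13 stayed called in every one, and of the 47 calls of other pathway genes these counts were 47 and 15. Among values that were not called, Gpc6 in Smad7-KO without TGF-β1 went from 0.04 to -0.29 (edgeR adjusted p = 0.0176) without the length trend and -0.30 (0.0304) with the block added, and Chpf2 went from 0.05 to -0.28 (0.0472) without both second control libraries. The causes of these changes were not tested. Members of low count, such as Chst3 (10 to 55 counts a library) and Chsy3 (3 to 49), are limited by depth.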

Other observations

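The neighbouring core proteins Gpc3 and Gpc4 lie on the minus strand of the X chromosome, at chrX:52272426-52613950 and chrX:52053021-52165252, with Hs6st2 at chrX:51387212-51681856, and all 3 were called lower in Smad7-KO in both comparisons, by log2 fold changes of -2.39, -0.57 and -0.76 without TGF-β1 and -1.44, -0.71 and -0.88 with it. This was seen after the values were known. Chst7, farther away at chrX:20059560-20097521, was also called lower in both. Of all genes tested, 10.7% were called in the same direction, higher or lower, in both Smad7-KO comparisons. Those called lower were 13.7% without TGF-β1 and 7.23% with it, and the share lower in both was not counted. Other genes of the X chromosome were not counted either. Nrp1, a receptor that can carry a heparan or chondroitin sulfate chain, was 1.57-fold lower with TGF-β1 in control cells (log2 fold change -0.65 ± 0.11, edgeR adjusted p = 0.00291) and 1.65-fold lower in Smad7-KO cells (-0.72 ± 0.11, edgeR adjusted p = 0.00112), and it was 1.56-fold higher in Smad7-KO without TGF-β1 (edgeR adjusted p = 0.00272) and 1.49-fold higher with it (edgeR adjusted p = 0.00651). Hpse was 1.43-fold lower with TGF-β1 in both control cells (-0.52 ± 0.12, edgeR adjusted p = 0.0179) and Smad7-KO cells (-0.52 ± 0.12, edgeR adjusted p = 0.0156), calls that were lost in 3 of 12 omissions of a single library in control cells (highest edgeR adjusted p = 0.0778, log2 fold change -0.45, without unstimulated control 1) and 5 of 12 in Smad7-KO cells (0.0703, -0.49, without unstimulated Smad7-KO 2).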
